A study of Mus musculus with 42 samples.

Results

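Neu2, Thsd4, Tfpi2 and Ednrb were 4 of the 24466 gene symbols counted by RNA-seq, and they were chosen by their read counts in the same libraries, many in satellite cells and almost none in iPax7 cells grown with doxycycline (Dox). Their levels in satellite cells and in +Dox cells are therefore given as a description, with no test. Not all of them fit the name of secreted and receptor genes. Thsd4 and Tfpi2 encode secreted proteins and Ednrb a receptor, whereas Neu2 encodes the cytosolic sialidase.

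The study induced the satellite cell factor Pax7 in mouse embryonic stem cell-derived mesodermal precursors (iPax7) and compared these cells with muscle satellite cells and with the C2C12 myoblast line. RNA came from iPax7 cells in medium with 0.75 ug/ml Dox (+Dox, 3 libraries), from iPax7 cells 3 days after Dox withdrawal (-Dox, 2 libraries) and from satellite cells labelled in vivo (3 libraries). In the study's methods, satellite cells were sorted by the green signal of a Pax7-ZsGreen reporter mouse. The +Dox and -Dox cells carry the same inducible Pax7 transgene and differ in Dox and in the days without it, so loss of Pax7 and the days of culture without it cannot be told apart. Accessible chromatin was mapped by ATAC-seq in 10 conditions, each deposited as 1 peak file. These were satellite cells, +Dox, -Dox at 12 hours, 24 hours and 3 days, iPax7 myotubes made in 2% horse serum, and 4 states of C2C12. The C2C12 states were myoblasts, myoblasts of a stable line with the Flag tag alone (flag control), myoblasts of a stable line with Flag-tagged Pax7 (Pax7-flag), each in 10% FBS, and myotubes in 2% horse serum. Histone marks were read in +Dox, -Dox at 3 days and the Flag and Pax7-flag lines, and the labels also list them in iPax7 myotubes, which are not analysed here.

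Satellite cells are the stem cells of skeletal muscle, lie between the muscle fibre and its basal lamina, and are marked by Pax7. Sialidases such as Neu2 remove terminal sialic acid from glycoproteins and glycolipids. Thsd4 (also ADAMTSL6) binds fibrillin-1 and promotes microfibril assembly in the matrix. Tfpi2 is a Kunitz-type inhibitor that holds back plasmin and other serine proteases around cells. Ednrb is a G protein-coupled receptor for the endothelin peptides, best known from neural crest and endothelial cells.

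Starts of transcription are printed first because the accessibility results turn on them. The sequences run 5′ to 3′ over the 250 bases before 1 annotated start of each gene (GENCODE M1 on NCBIM37, which is mm9), the start nearest to the summit of an ATAC-seq peak in any condition, and capitals mark the E-box CANNTG.
Neu2, chr1:89490875-89491124, plus strand: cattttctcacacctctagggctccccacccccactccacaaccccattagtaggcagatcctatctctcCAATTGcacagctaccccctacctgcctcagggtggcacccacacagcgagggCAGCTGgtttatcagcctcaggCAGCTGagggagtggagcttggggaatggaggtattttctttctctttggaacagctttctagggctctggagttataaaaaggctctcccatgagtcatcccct
Thsd4, chr9:60369854-60370103, minus strand: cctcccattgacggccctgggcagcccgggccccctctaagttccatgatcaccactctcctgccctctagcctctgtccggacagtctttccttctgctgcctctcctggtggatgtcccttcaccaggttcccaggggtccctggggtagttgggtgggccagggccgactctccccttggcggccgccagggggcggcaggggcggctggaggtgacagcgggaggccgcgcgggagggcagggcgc
Tfpi2, chr6:3918376-3918625, minus strand: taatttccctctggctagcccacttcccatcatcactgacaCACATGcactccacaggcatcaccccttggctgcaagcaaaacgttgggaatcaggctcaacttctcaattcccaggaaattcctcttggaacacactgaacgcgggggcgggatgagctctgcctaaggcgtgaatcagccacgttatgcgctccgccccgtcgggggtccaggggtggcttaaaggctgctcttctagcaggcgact
Ednrb, chr14:104243391-104243640, minus strand: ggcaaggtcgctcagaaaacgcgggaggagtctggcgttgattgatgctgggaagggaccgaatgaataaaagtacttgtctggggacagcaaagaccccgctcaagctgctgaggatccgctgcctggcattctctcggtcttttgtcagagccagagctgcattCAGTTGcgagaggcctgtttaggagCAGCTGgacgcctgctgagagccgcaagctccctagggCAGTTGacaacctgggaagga
The window of Neu2 held 3 E-boxes, that of Ednrb 3, that of Tfpi2 1 and that of Thsd4 0. An E-box of these letters occurred before 62.9% of the 45962 protein-coding starts searched. The E-box CAGCTG, present in the Neu2 and Ednrb windows, occurred before 12.6% of starts. TATAAA, searched on both strands, was found in the Neu2 window and before 10.5% of starts. The motif TGANTCA was found in the Neu2 and Tfpi2 windows and before 5.62% of starts. Apart from TATAAA these motifs read the same on both strands, and CAGCTG is one form of the E-box. The Neu2 window was poor in CpG, with 1 CpG against a median of 9 over all starts, while the Thsd4 window held 13, the Tfpi2 window 11 and the Ednrb window 11.

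The libraries held 39010958 to 54674619 counts on genes, and 14836 genes had enough counts to be tested. Not uniquely placed reads, which were not counted on genes, made up 23.6 to 30.7% of all reads listed in satellite libraries and 7.11 to 7.60% in iPax7 libraries. Pax7, the induced factor, was at 246 to 299 CPM (counts scaled to library size) in +Dox, 4.66 and 5.70 in -Dox and 83.0 to 180 in satellite cells, which fits the labels. Library sizes for CPM were scaled by TMM. Between genes, levels are compared as RPKM, which also divides by exon length.

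Neu2 had the highest satellite cell level of the 4 genes. It lies at chr1:89406464-89494420 on the plus strand (mm9), and 5 starts are annotated for its coding transcripts. In +Dox its counts were 0, 0 and 1, in -Dox 2 and 0, and in satellite cells 4105, 14324 and 15911. The satellite libraries therefore stood at 114, 406 and 444 CPM, a mean of 321 ± 180 (SD, n = 3). Among the satellite libraries, replicate 1 was 3.88 times below replicate 3. The ratio of satellite to +Dox CPM was 57336 with a counting interval of 10290 to 2264710, an interval that wide because it rests on 1 read. Against -Dox the ratio was 16469 (4559 to 135995).

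Thsd4 lies at chr9:59814738-60369853 on the minus strand and spans 555 kb. Its counts were 0 in each +Dox library, 7 and 0 in -Dox, and 674, 4476 and 4525 in satellite cells. In CPM the satellite libraries held 18.8, 127 and 126, a mean of 90.6 ± 62.2 (SD, n = 3). Replicates 2 and 3 nearly coincided and replicate 1 was far below them. Satellite cells were at least 5385-fold higher than +Dox, taking 3 counts over the +Dox group as the limit that 0 counts allow. Against -Dox the ratio was 1326 (643 to 3298).

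Tfpi2 lies at chr6:3912594-3918375 on the minus strand, with 1 annotated start. Its counts were 0 in each +Dox library, 0 and 4 in -Dox, and 3241, 1621 and 4383 in satellite cells. The satellite libraries held 90.2, 45.9 and 122 CPM, a mean of 86.1 ± 38.3 (SD, n = 3). Here replicate 2 was the lowest and replicate 1 stood between the others. Satellite cells were at least 5145-fold higher than +Dox, and 2217-fold (866 to 8138) above -Dox.

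Ednrb lies at chr14:104213842-104243390 on the minus strand. Its counts were 0 in all 5 iPax7 libraries and 3120, 2929 and 2615 in satellite cells. The satellite libraries held 86.9, 83.0 and 72.9 CPM, a mean of 80.9 ± 7.19 (SD, n = 3), the tightest of the 4 genes. Satellite cells were at least 4822-fold higher than +Dox and at least 2770-fold higher than -Dox.

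**Figure D1:**
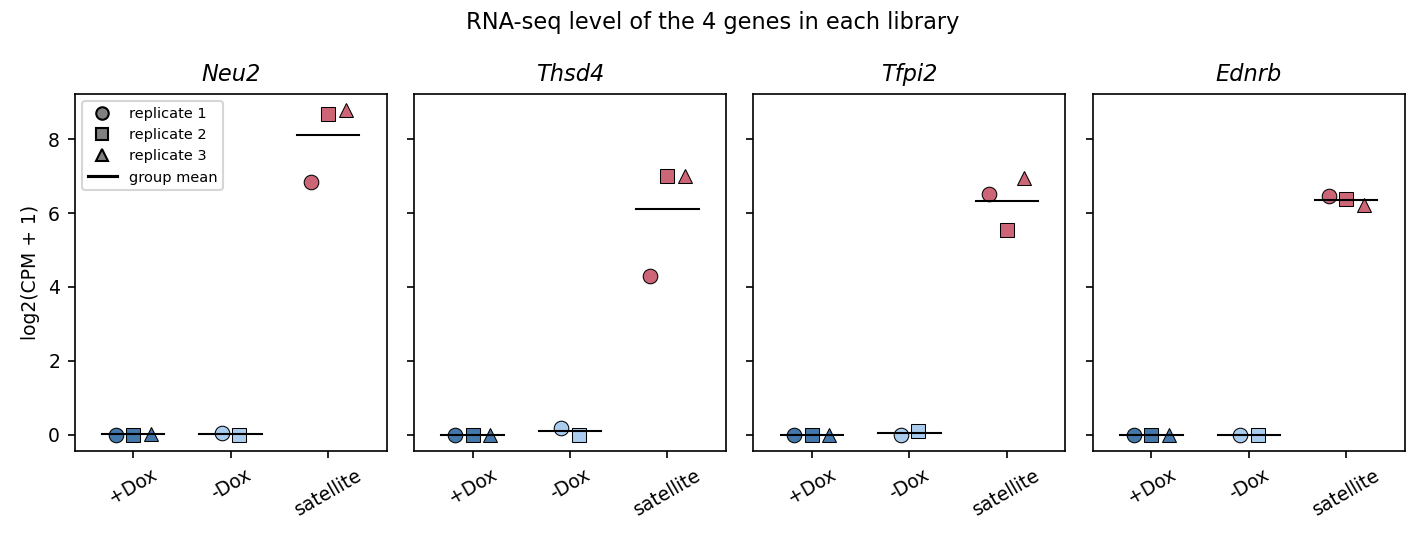
RNA-seq level of each gene as log2(CPM + 1) in the 3 +Dox, 2 -Dox and 3 satellite cell libraries. Each symbol is 1 library and the bar is the mean of the plotted values. The iPax7 libraries sit at or near 0 in every panel, and satellite replicate 1 lies below the other two for Neu2 and Thsd4 but not for Tfpi2 or Ednrb.

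The satellite libraries did not rank alike for the 4 genes. For Neu2 the log2 ratio of replicate 1 to the mean of the other two was -1.89, and only 1.83% of tested genes had as low a ratio. For Thsd4 the log2 ratio was -2.69, and 0.398% of tested genes were as low. For Tfpi2 it was 0.10 and for Ednrb 0.15, against a median of -0.00039 over all tested genes. Per length, the order of mean satellite levels was Neu2 (124 RPKM), Tfpi2 (56.3), Ednrb (20.0) and Thsd4 (6.48). Neu2 spanned 44.1 to 171 RPKM and Tfpi2 30.0 to 79.9, so these neighbours overlapped. Ednrb spanned 18.1 to 21.5 and Thsd4, with 13986 exon bases in the annotation, 1.34 to 9.07, so each of these was apart from the gene above it. The median over 13488 tested genes with an annotated length was 3.44 RPKM, and 3.68% of them were at or above Neu2, 7.64% at or above Tfpi2, 17.9% at or above Ednrb and 37.5% at or above Thsd4.

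At most 1 count over the 3 +Dox libraries was seen for 1130 tested genes. Ranked by mean satellite CPM among these, Neu2 came 1, Thsd4 8, Tfpi2 9 and Ednrb 12. The gene just above Ednrb was Cd93, at 83.8 CPM, and the next below was Iqsec3, at 79.7 CPM.

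Dox withdrawal bears on whether the 4 genes come on when Pax7 is lost, although their near absence in +Dox was part of how they were chosen. Of the 14836 genes tested, 7.64% were called, meaning an adjusted p under 0.05 and at least a 2-fold change, with 4.63% higher and 3.01% lower in -Dox. That test says nothing of the 4 genes, which passed the filter on low counts only through the satellite libraries, and no p is given for them. Only Thsd4 (7 reads) and Tfpi2 (4 reads) exceeded 3 counts in any iPax7 library, and no fold is given. In -Dox, a level under about 3 counts, or 0.0583 to 0.0586 CPM per library, could not be told from 0. The values above that limit, each in 1 -Dox library, were 0.136 CPM for Thsd4 and 0.0781 for Tfpi2. Their satellite means were 90.6 and 86.1 CPM.

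The 4 genes were followed with other genes of their families. In satellite cells against +Dox, 42.1% of all tested genes were called, 23.9% higher and 18.2% lower, and the median log2 fold change over all genes was 0.17. In satellite cells against -Dox, 37.6% were called, 20.4% higher and 17.2% lower. In the counts that follow the 4 genes themselves are left out.

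Of 23 tested genes of sialic acid metabolism, 4 were higher and 5 lower in satellite cells than in +Dox, with a median log2 fold change of 0.12. Both counts stand near the shares over all genes, 23.9% higher and 18.2% lower, and are not a result about the list. Gne, which starts the synthesis, fell from 18 ± 0.208 to 3.81 ± 2.46 CPM (SD, n = 3 each; log2 fold change -2.24, adjusted p = 0.0097), and without satellite replicate 1 its log2 fold change was -2.84. Nans fell by 2.81 on the log2 scale (adjusted p = 0.000785) and Nanp, the phosphatase of the next step, also by 2.81 (adjusted p = 0.000304). Cmas, which activates sialic acid with CMP, and Slc35a1, which carries CMP-sialic acid into the Golgi, fell by 1.45 and 1.54 (adjusted p = 0.0333 and 0.00171). The genes that rose were the lysosomal sialidase Neu1 and the sialyltransferases St3gal5, St6galnac2 and St8sia5. St8sia5 held 0, 97 and 29 counts in satellite cells and 0 in each iPax7 library, so its call rests on satellite replicates 2 and 3.

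Among the other sialidases, Neu1 held 1735, 560 and 579 counts in satellite cells and 756, 565 and 301 in +Dox. Its log2 fold change was 1.59 ± 0.52 (SE; adjusted p = 0.0319), a call lost without satellite replicate 1 (0.85, adjusted p = 0.117). Neu3, the plasma membrane sialidase, was at 1.22 ± 1.07 CPM in satellite cells and 1.12 ± 1.14 in +Dox (SD, n = 3 each) and was not called. Neu4 held 1 read in all libraries together and was not tested. St3gal5, which makes the ganglioside GM3, rose in satellite cells (log2 fold change 3.01 ± 0.35, SE; adjusted p = 0.000184) and also in -Dox against +Dox (1.81, adjusted p = 0.0143). St8sia2, a polysialyltransferase, was the other of 2 genes that rose in -Dox (3.69, adjusted p = 0.0204), and 0 fell. Over all tested genes 4.63% rose and 3.01% fell there. St8sia2 was at 87.4 CPM in -Dox and 3.30 ± 1.44 in satellite cells (SD, n = 3). Against -Dox, satellite cells had 3 genes of the list higher and 6 lower, against 20.4% and 17.2% of all tested genes.

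Of 23 tested genes of the microfibril matrix around Thsd4, 12 were higher and 4 lower in satellite cells than in +Dox, with a median log2 fold change of 1.14. Over all tested genes 23.9% were higher and 18.2% lower, so the lower count stands near its share. Without satellite replicate 1, 8 were higher and 4 lower. Mfap5, a fibrillin-binding glycoprotein, held 1, 0 and 0 counts in +Dox and 979, 1019 and 1768 in satellite cells (log2 fold change 12.1 ± 1.29, SE; adjusted p = 0.000122). Eln, encoding elastin, was at 0 in all iPax7 libraries and at 321, 156 and 134 counts in satellite cells, at least 340-fold above +Dox. Ltbp4, which binds latent TGF-beta to the matrix, rose from 7.29 ± 0.721 to 248 ± 41.2 CPM (SD, n = 3 each; adjusted p = 9.66e-06). Emilin1 and the cross-linking enzyme Lox rose by log2 fold changes of 4.83 and 3.03.

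The close relatives of Thsd4 did not move together. Adamtsl4 rose (4.18, adjusted p = 0.00618), with 4500, 1588 and 691 counts in the satellite libraries, and by 3.21 without satellite replicate 1. Adamtsl1 was also called higher (2.90, adjusted p = 0.0349), with 1385, 104 and 3016 counts, and its call was lost without satellite replicate 1 (adjusted p = 0.0608). Adamtsl3 fell by 2.57 and Adamtsl5 by 2.07 on the log2 scale (adjusted p = 0.0136 and 0.0234), and Adamtsl2 was not called. Without satellite replicate 1 the log2 fold change of Adamtsl3 was -3.79. Fbn1, the fibrillin to which Thsd4 binds, was at 48.7 ± 17.6 CPM in +Dox and 87.2 ± 23.3 in satellite cells (SD, n = 3 each) and was not called (adjusted p = 0.0763).

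Fbn1 fell in -Dox against +Dox (log2 fold change -1.69, adjusted p = 0.0391), as did Efemp2 (-1.18, adjusted p = 0.0465). Mfap4 was the only gene of this list that rose in -Dox, where 4.63% of all tested genes rose and 3.01% fell. It went from 1, 1 and 0 counts in +Dox to 1095 and 1228 in -Dox (log2 fold change 10.7, adjusted p = 4.3e-05) and stood at 496, 998 and 1038 in satellite cells. Satellite cells and -Dox cells did not differ by the test for Mfap4 (log2 fold change 0.07, adjusted p = 0.931). In satellite cells against -Dox, 9 genes of the list were higher and 3 lower, against 20.4% and 17.2% of all tested genes.

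Of 16 tested genes of Kunitz inhibitors and the pericellular protease system around Tfpi2, 7 were higher and 2 lower in satellite cells than in +Dox, with a median log2 fold change of 1.11. Over all tested genes 23.9% were higher and 18.2% lower. Plasminogen activators and their receptor were among those that rose. Plat, the tissue activator, rose from 74.3 ± 7.68 to 316 ± 127 CPM (SD, n = 3 each; adjusted p = 0.000965). Plau, the urokinase activator, held 14150, 1623 and 2457 counts in satellite cells and 508, 408 and 296 in +Dox (log2 fold change 4.66, adjusted p = 0.00154). Its satellite replicate 1 was far above the others, and without it the log2 fold change was 3.09. Serpine2, which inhibits both activators, fell from 330 ± 30.1 to 32.7 ± 5.85 CPM (SD, n = 3 each; adjusted p = 1.66e-05).

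The nearest relative of Tfpi2, Tfpi, did not share its pattern. It was at 8.87 ± 2.91 CPM in +Dox, 18.8 in -Dox and 10.8 ± 2.46 in satellite cells (SD, n = 3 where given) and was not called in any of the 3 comparisons. F3, the tissue factor whose protease complex Tfpi inhibits, rose in satellite cells (log2 fold change 2.27, adjusted p = 0.000955). The Kunitz inhibitor Spint1 fell, with 180, 348 and 398 counts in +Dox and 0, 0 and 3 in satellite cells (adjusted p = 0.00264), and Spint2 was not called. In -Dox against +Dox, 0 genes of the list rose and 2 fell, the urokinase receptor Plaur (log2 fold change -2.47, adjusted p = 0.00062) and the thrombin receptor F2r (-1.46, adjusted p = 0.0182). Of all tested genes, 4.63% rose and 3.01% fell in that comparison. Against -Dox, 7 genes were higher and 3 lower in satellite cells, beside 20.4% and 17.2% of all tested genes.

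Of 13 tested genes of endothelin signalling around Ednrb, 4 were higher and 2 lower in satellite cells than in +Dox, with a median log2 fold change of 0.87. Both counts stand near the shares over all genes, 23.9% higher and 18.2% lower, and are not a result about the list. Ligands of the receptor were among those that rose. Edn3, the endothelin with a known preference for Ednrb, held 5300, 5219 and 4817 counts in satellite cells, 93, 0 and 0 in +Dox and 0 and 3 in -Dox (log2 fold change against +Dox 8.16 ± 1.53, SE; adjusted p = 0.00237). Edn1 was at 0 in all 5 iPax7 libraries and at 525, 144 and 230 counts in satellite cells, at least 500-fold above +Dox (adjusted p = 0.00105). Edn2 held 0 counts in all libraries.

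The other receptor, Ednra, was at 395, 377 and 173 counts in satellite cells and 72, 177 and 10 in +Dox (log2 fold change 2.69, adjusted p = 0.0373), a call lost without satellite replicate 1 (adjusted p = 0.0768). Of the enzymes, Ece1 was not called, Ece2 fell by 1.71 on the log2 scale (adjusted p = 0.00444), and Mme, which degrades endothelins, fell by 4.31 (adjusted p = 0.00975). Mme was also the only gene of the list called in -Dox against +Dox, where it fell by 5.54 (adjusted p = 0.0389). Of all tested genes, 7.64% were called there. In satellite cells against -Dox, 3 genes of the list were higher and 1 lower, against 20.4% and 17.2% of all tested genes.

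**Figure D2:**
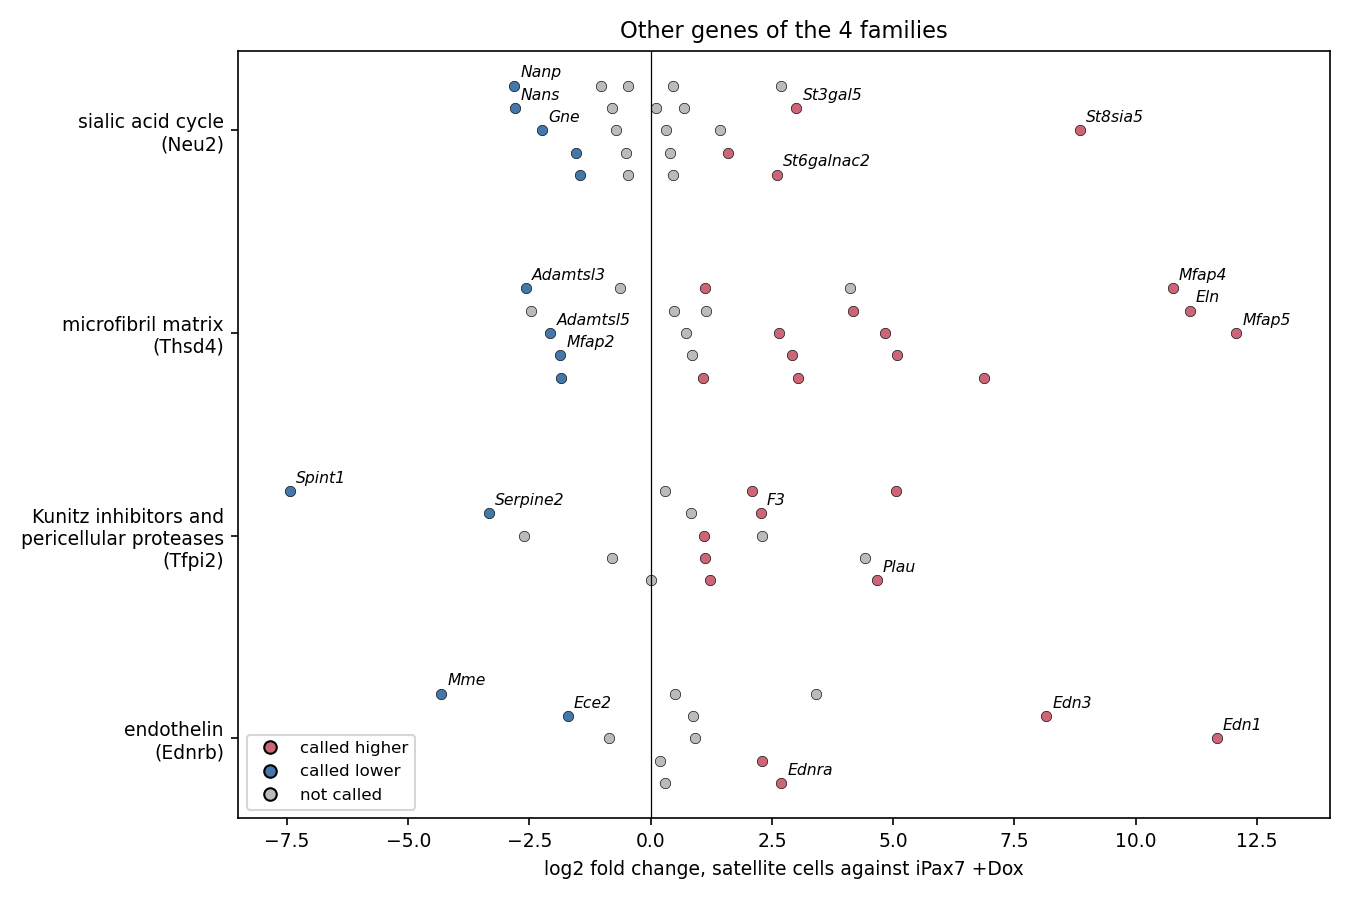
Log2 fold change in satellite cells against iPax7 +Dox for the tested genes of the 4 families, without Neu2, Thsd4, Tfpi2 and Ednrb. Each point is 1 gene, red where called higher, blue where called lower and grey where not called, with vertical spread for legibility only and up to 3 genes named in each direction of each list. The 5 genes of the sialic acid list that fell stand left of 0, and Mfap5, Edn1, Eln and Mfap4 lie furthest right.

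Markers of other cell types moved with the same contrast, and their part in these results was not tested. Satellite cell markers were higher in satellite cells than in +Dox for 10 of 12 genes, with 1 lower and 1 not called. The lower gene was the induced factor Pax7, at 6460, 2929 and 4137 counts in satellite cells. In +Dox it held 16986, 19081 and 12750. The summed level of the 12 was 16394 to 26472 CPM in satellite cells, 3986 to 5647 in +Dox and 1116 to 1192 in -Dox. Sdc4 held the most counts of the list in each satellite library (597763, 355194 and 531427), so that sum rests largely on it. All 12 endothelial markers were also higher, with a summed level of 508 to 676 CPM in satellite cells, 9.71 to 23.3 in +Dox and 3.87 to 6.25 in -Dox. Cdh5 was at 1976, 2864 and 2471 counts in satellite cells and at 0 in each iPax7 library. Blood markers were higher for 7 of 8 tested genes (72.8 to 289 against 8.36 to 11.5 CPM in +Dox and 9.13 to 17.3 in -Dox, with Hbb-b1 and Hba-a1 at 0 in satellite cells). Fibroadipogenic markers were higher for 8 of 10 (1570 to 2998 against 115 to 269 in +Dox and 91.9 to 128 in -Dox). Glial markers were higher for 7 of 9 tested (180 to 252 against 19.7 to 28.0 and 59.8 to 73.5). Their sum in -Dox was mostly Erbb3, at 2760 and 3215 counts. In satellite cells Erbb3 held 108, 10 and 126 counts, and Mbp held the most of the glial list in each library (3135, 6348 and 3395). Mural markers were higher for 9 of 10 (1165 to 1535 against 102 to 178 and 1407 to 1427). Their sum in -Dox was mostly Acta2 (58745 and 58330 counts) and Des (12341 and 13711). Des also held the most counts of the mural list in each satellite library (19127, 15261 and 15298). Myofibre markers summed to 147 to 294 CPM in satellite cells, 145 to 213 in +Dox and 35189 to 37311 in -Dox, with 5 of 10 higher and 2 lower than in +Dox. In such bulk samples, fewer cells of a type and less RNA per cell cannot be told apart.

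The genes most like each of the 4 were read from Pearson's r of log2(CPM + 1) over the 8 libraries, a description that rests mostly on the step between 5 libraries near 0 and 3 satellite libraries. An r above 0.95 was shared with 1060 genes by Neu2, 787 by Thsd4, 1081 by Tfpi2 and 1134 by Ednrb. The 3 closest were Arsj, Ptprb and Ngef for Neu2, Trim69, Egfl6 and Pcdh11x for Thsd4, Ccl3, Bmx and H2-Ob for Tfpi2, and Col6a3, Abca6 and Sim2 for Ednrb. These genes were low in satellite cells beside the 4, from 0.561 CPM for Ngef to 62.3 for Ptprb. Ngef lies across Neu2 on the opposite strand, and with 17, 21 and 22 counts in satellite cells it held few of the reads there.

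Of the nearest annotated genes on each side, Calcr shared the pattern. It encodes the calcitonin receptor of quiescent satellite cells and lies 198 kb from Tfpi2. It held 0, 1 and 2 counts in +Dox, 8 and 0 in -Dox and 10800, 6868 and 10295 in satellite cells (log2 fold change against +Dox 13.7 ± 0.90, SE; adjusted p = 1.04e-05). On the other side of Tfpi2, Gngt1 was at 0 in all libraries. Beside Thsd4, Nr2e3 was at 0 in all libraries and Lrrc49 was not called (adjusted p = 0.175). Beside Neu2, 3110079O15Rik held 4 reads in all and Inpp5d was not called (adjusted p = 0.137). Beside Ednrb, Slain1 held 53, 4 and 0 counts in satellite cells and was not tested. Pou4f1 was at 0 in +Dox, 88 and 27 counts in -Dox and 137, 69 and 86 in satellite cells (adjusted p = 0.00194 for satellite cells and 0.0157 for -Dox, each against +Dox).

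Accessible chromatin at the starts did not follow the RNA in the same way for the 4 genes. With 1 deposited peak file per condition there are no replicates and no test, and fold enrichments from files of different depth, which is unknown, cannot be set against each other as amounts. A peak within 1 kb of an annotated start was found in satellite cells for Neu2, Thsd4 and Tfpi2 but not Ednrb, 3 of the 4 genes against 58.6% of all 22219 protein-coding genes. In +Dox it was found for Neu2, Thsd4 and Ednrb but not Tfpi2, again 3 of 4, against 63.2% of all genes. The same 3 genes had one 12 hours after Dox withdrawal (61.3% of all genes), at 3 days (65.5%) and in iPax7 myotubes (61.8%), and all 4 had one at 24 hours (64.3%). In C2C12 cells only Neu2 had one, in myoblasts (45.1% of all genes), flag control cells (55.8%), Pax7-flag cells (56.8%) and myotubes (54.1%).

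At Tfpi2, the satellite peak spanned chr6:3917786-3918837, with its summit 111 bases before the start and inside the sequence printed above. Its fold enrichment was 15.4 and its -log10 q 67.2. No peak lay within 1 kb of this start in +Dox, at 12 hours, at 3 days, in myotubes or in any C2C12 file, and the peak at 24 hours was small (2.71, -log10 q 3.51). iPax7 cells without Dox had another peak instead, about 5.5 kb before the start. It was absent in +Dox and in satellite cells and had a fold enrichment of 5.26 at 12 hours, 8.39 at 24 hours and 11.3 at 3 days, each relative to its own file.

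At Ednrb, satellite cells, which held 2615 to 3120 Ednrb reads per library, had no peak within 1 kb of either start. The iPax7 conditions, at 0 reads in +Dox and -Dox, each had one, at a fold enrichment of 3.27 in +Dox, 3.15 at 12 hours, 3.45 at 24 hours, 5.64 at 3 days and 3.68 in myotubes. Their -log10 q was 8.36 in +Dox, 5.52 at 12 hours, 6.76 at 24 hours, 25.4 at 3 days and 4.07 in myotubes. With peaks of -log10 q of at least 10 only, Ednrb kept a promoter peak at 3 days alone. A second site lay about 3.5 kb inside the gene. Its peak had a fold enrichment of 5.34 in +Dox, 10.9 at 12 hours, 12.6 at 24 hours and 22.4 at 3 days, and of 3.32 in satellite cells and 3.19 in myotubes, values that are given side by side and not as amounts. No C2C12 file held a peak within 10 kb of Ednrb.

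A missing promoter peak was uncommon at this level of RNA. The level used here was the mean satellite CPM, which is not scaled for gene length. Of 2229 tested protein-coding genes at or above that of Ednrb, 98.1% had a satellite peak within 1 kb of a start and 42 had none. Of the 12 such genes with at most 1 read in +Dox, 10 had one, the others being Ednrb and Cd93. Of all 950 tested protein-coding genes with at most 1 read in +Dox, whatever their satellite level, 38.3% had one. Among marker genes, 12 of 12 satellite cell markers had a satellite promoter peak and 6 of 12 endothelial markers did, with none at Cdh5, Emcn, Vwf, Egfl7, Tie1 or Flt1. Peaks were also found at 1 of 11 blood, 5 of 10 fibroadipogenic, 5 of 10 glial, 7 of 10 mural and 6 of 10 myofibre marker promoters. Over all protein-coding genes the share was 58.6%. Not all of these markers reached the RNA level of Ednrb, so the 98.1% is no yardstick for them. In +Dox the numbers were 10 of 12 satellite cell, 8 of 12 endothelial and 4 of 11 blood markers. They were 5 of 10 fibroadipogenic, 5 of 10 glial, 5 of 10 mural and 6 of 10 myofibre markers. Edn3 and Edn1 had a satellite promoter peak and Ednra had none.

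At Neu2 the peaks depended on which start was read. The first start, which lies inside Ngef, had a peak in all 10 files. Around the starts of Neu2-004, Neu2-201 and Neu2-005 there was a peak of 3.52 in satellite cells, of 7.45 in C2C12 myoblasts, 15.4 in flag control cells, 9.10 in Pax7-flag cells and 4.70 in C2C12 myotubes, and none in any iPax7 file. The start of Neu2-002 had none in any of the 10 files. The start whose sequence is printed above, 84.7 kb further on, had a peak in satellite cells (10.9, -log10 q 39.5) with its summit 36 bases before the start. It had one of 8.83 in C2C12 flag control cells and of 11.7 in C2C12 myotubes, a small one at 3 days (2.87, -log10 q 5.59), and none in +Dox, at 12 or 24 hours, in iPax7 myotubes, in C2C12 myoblasts or in C2C12 Pax7-flag cells. Another site, 41.3 kb into the gene in the stretch shared with Ngef, had a peak in all 10 files. It was the lowest by fold enrichment of the 11 satellite peaks within 10 kb of Neu2 (2.73) and the highest there in each of the other 9 files. It was 30.3 in +Dox, 51.0 at 12 hours, 75.4 at 24 hours, 63.4 at 3 days and 11.8 in iPax7 myotubes. In C2C12 it was 25.6 in myoblasts, 59.3 in flag control cells, 77.3 in Pax7-flag cells and 23.7 in myotubes.

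At Thsd4 the start printed above had a peak in satellite cells (8.98, -log10 q 28.7) and in all 5 iPax7 files, from 2.40 at 3 days to 6.03 in +Dox, and none in C2C12 cells. Its other 4 starts had none within 1 kb in any file. Inside the gene the sets of peaks differed. Within 10 kb of Thsd4, satellite cells had 16 peaks, of which 5 overlapped a +Dox peak by at least 1 base, and +Dox had 23. The largest satellite peak there was 89.9 kb into the gene (15.6, -log10 q 68.5), where the +Dox peak was 1.98. For Neu2, 3 of 11 satellite peaks overlapped a +Dox peak, for Tfpi2 0 of 1 and for Ednrb 1 of 1. In all, 9 of 29 satellite peaks (31.0%) around the 4 genes overlapped a +Dox peak, against 65.9% of the 73512 peaks of the satellite file. Of the 29 peaks, 16 were at Thsd4 and 11 at Neu2. Because the 4 genes were chosen as near silent in +Dox, these shares are a description and no test.

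**Figure D3:**
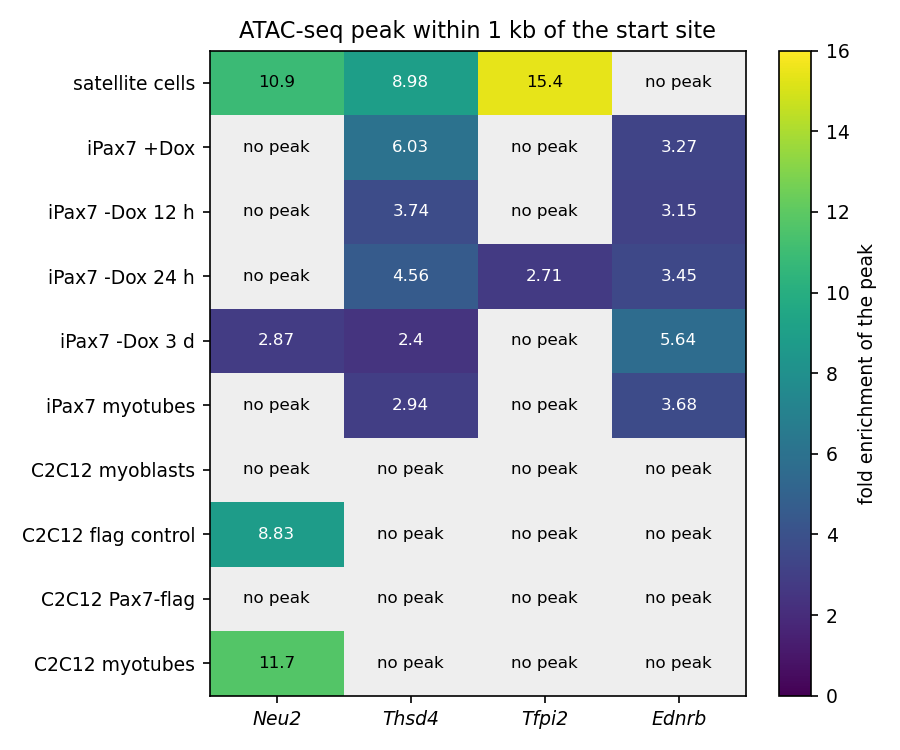
Fold enrichment of the ATAC-seq peak within 1 kb of the start site whose upstream sequence is printed, for each gene (columns) in each of the 10 conditions (rows, 1 peak file each). Grey cells hold no peak. Tfpi2 has its peak of 15.4 in satellite cells and none in +Dox, and Ednrb has peaks in the iPax7 rows and none in satellite cells.

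**Figure D4:**
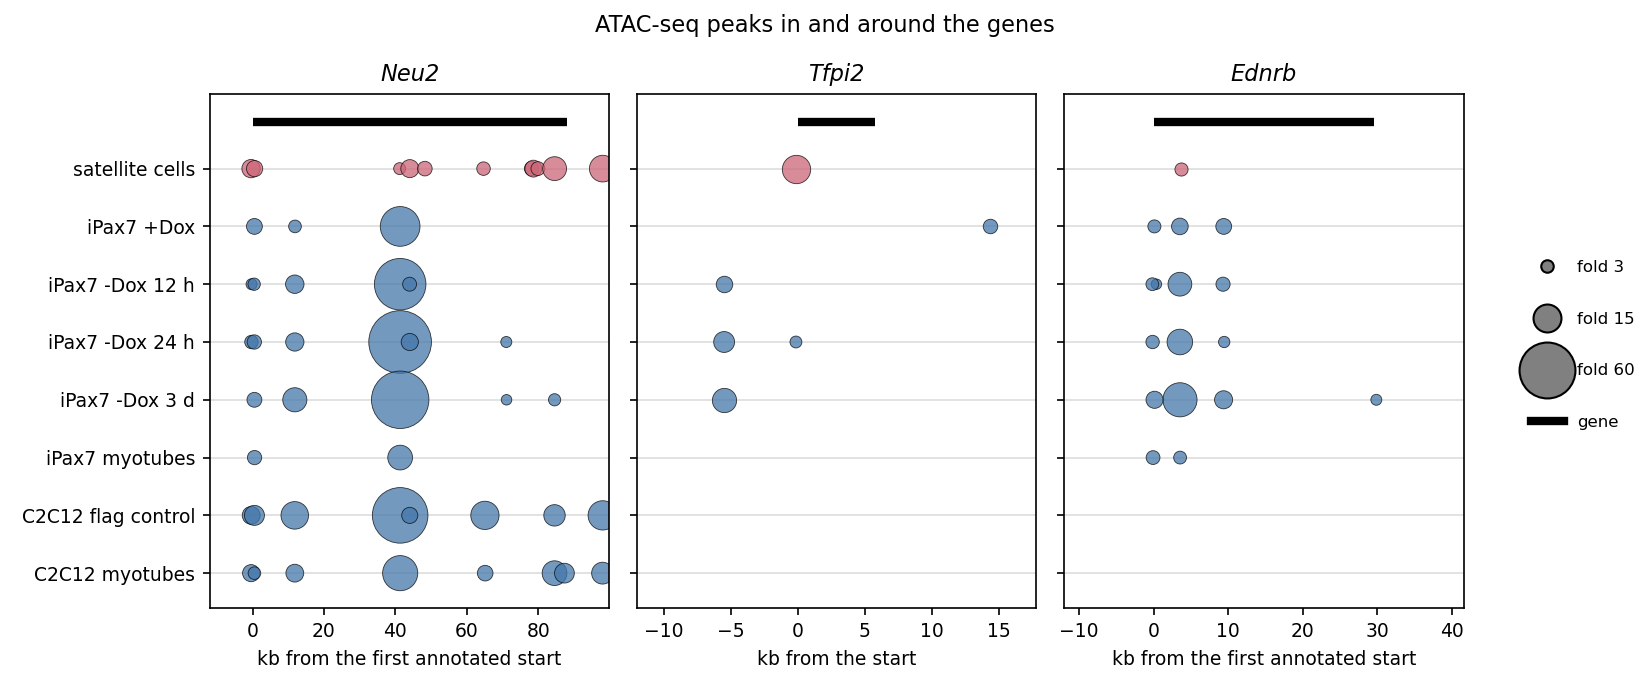
ATAC-seq peaks from 10 kb before to 10 kb after Neu2, Tfpi2 and Ednrb in 8 of the 10 conditions, by distance in kb from the first annotated start. Each circle is 1 peak, with its area in proportion to fold enrichment, in red for satellite cells, and the black bar is the gene. The large circles 41.3 kb into Neu2 in iPax7 and C2C12 cells are the largest of their rows, and the satellite circle there (2.73) is the smallest of its row. Circle sizes are not comparable as amounts between rows.

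Histone marks were mapped in iPax7 and C2C12 cells only, so they bear on the cells in which the 4 genes were silent or were not measured by RNA. The 4 genes were chosen as near silent in +Dox, whereas all genes include expressed ones. The histone shares given here and below are therefore a description and no test, and no share over silent genes was computed. H3K27me3, the mark of Polycomb repression, had a called region within 1 kb of a start for all 4 genes in +Dox, against 21.8% of all genes. In -Dox at 3 days it did for Neu2 and Thsd4 (19.9% of all genes), in C2C12 flag control cells for Thsd4 (19.0%) and in C2C12 Pax7-flag cells for Thsd4 and Tfpi2 (21.5%). The extent differed widely among the 4 genes. Regions covered 21.1% of Neu2 in +Dox and 21.3% in -Dox, and only 9.14% and 8.77% of all genes were covered as much. They covered 0% of it in C2C12 flag control cells and 0.331% in Pax7-flag cells, although the called regions of the whole files summed to 91.7 and 65.9 Mb in iPax7 and to 130 and 161 Mb in C2C12. The part of Neu2 past Ngef was covered as much as the part they share, 21.8% against 20.8% in +Dox.

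Thsd4 was covered at 17.4% in +Dox, 18.9% in -Dox, 13.8% in C2C12 flag control and 17.7% in Pax7-flag cells. Tfpi2 and Ednrb held little of the mark in iPax7 cells, 0.244 kb (1 region, 4.22% of the gene) and 0.62 kb (2 regions, 2.10%) in +Dox and none in -Dox. In C2C12 flag control cells Tfpi2 held 0.912 kb, or 15.8% of this short gene, and Ednrb 0.344 kb (1.16%). In Pax7-flag cells Tfpi2 held 0.413 kb (7.14%) and Ednrb none.

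H3K27Ac, a mark of active promoters and enhancers, lay within 1 kb of a start of 0 of the 4 genes in +Dox (48.1% of all genes) and in -Dox (45.2%), and of Neu2 alone in C2C12 flag control (53.7%) and Pax7-flag cells (54.8%). It covered 11.8% and 12.2% of Neu2 in those C2C12 cells, against 0% in +Dox and 0.199% in -Dox. H3K4me1, found at enhancers, lay at starts of Neu2 and Thsd4 in +Dox (61.7% of all genes) and in C2C12 flag control cells (49.8%), and of Neu2 alone in -Dox (64.9%) and Pax7-flag cells (63.6%). H3K4me3, found at promoters, lay at a start of Neu2 in +Dox (60.4%) and Pax7-flag cells (38.0%), and of Neu2 and Thsd4 in -Dox (66.0%) and flag control cells (45.3%). Tfpi2 held no region of H3K27Ac, H3K4me1 or H3K4me3 in any of the 4 states, and Ednrb only 1 of H3K4me3, of 0.281 kb in C2C12 flag control cells.

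**Figure D5:**
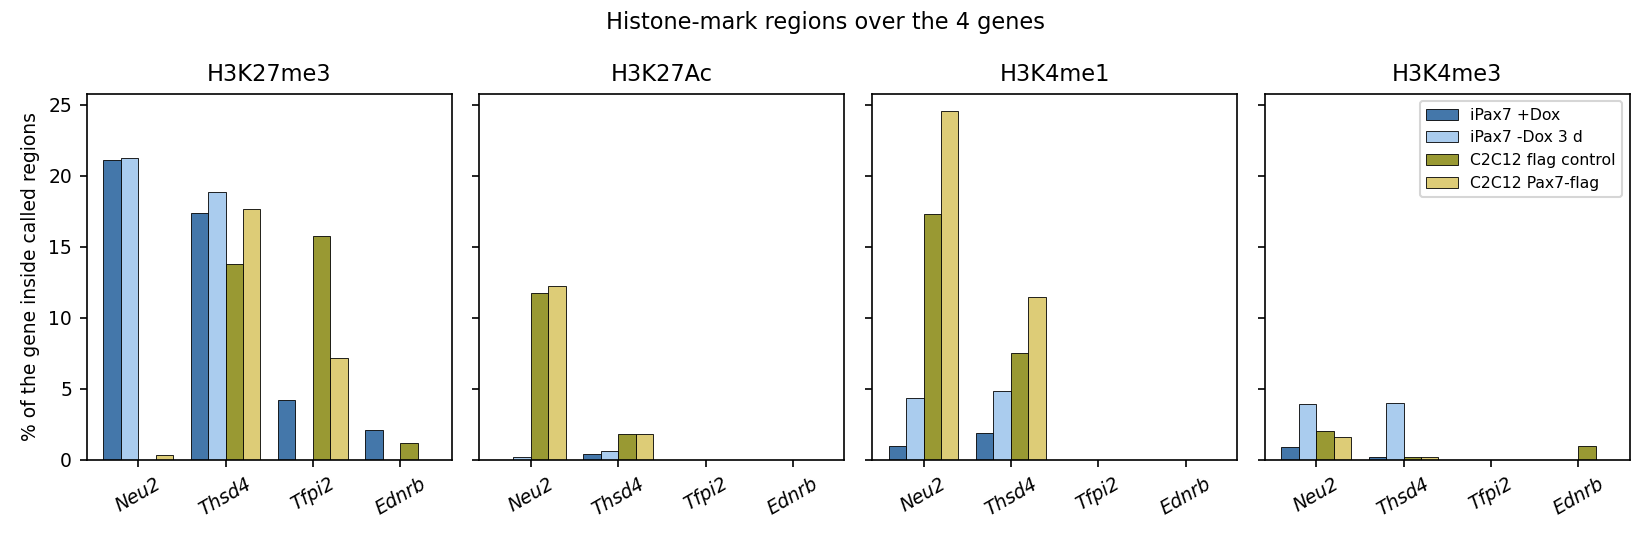
Share of each gene, in percent of its length, inside called regions of H3K27me3, H3K27Ac, H3K4me1 and H3K4me3, in iPax7 +Dox, iPax7 -Dox at 3 days, C2C12 flag control and C2C12 Pax7-flag cells (1 file each, no replicates). Neu2 carries H3K27me3 over 21.1 and 21.3% in iPax7 cells and H3K27Ac over 11.8 and 12.2% in C2C12 cells.

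None of the 2455 Pax7 sites of iPax7 cells lay in or beside the 4 genes. The nearest lay 449 kb from a start of Tfpi2, 508 kb from Neu2, 854 kb from Thsd4 and 1533 kb from Ednrb. The median over all protein-coding genes was 402 kb, and 53.5%, 57.4%, 72.3% and 86.1% of genes, in that order, had a nearer site.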

How the data were processed

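RNA-seq values are counts of reads per gene symbol, deposited by the authors for each of 8 libraries in the form HTSeq-count writes. The submitters' processing notes name HTSeq 0.6, TopHat2 2.0, Bowtie2 2.2 and 2.2.6, Trimmomatic 0.32, edgeR and mm9, without saying which made the counts. The annotation and strand setting are not given in the sources used here. ATAC-seq files give, per the study's methods, a fold enrichment and -log10 p and q for each peak that the authors called with MACS2 2.0.10 on merged replicates aligned to mm9. Histone and Pax7 files hold coordinates of regions the authors called on mm9.

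Counts were fitted in edgeR 4.0.16 (R 4.3.3) with TMM scaling, the filterByExpr filter and the quasi-likelihood test, all 3 groups in 1 fit, with Benjamini-Hochberg adjustment over 14836 genes. Unassigned reads (9.19 to 32.4% of reads listed) stayed out of library sizes. The SE is the fold change over the square root of F. Groups come from the labels and replicate numbers from the deposited tables. Nothing says that libraries came from separate cultures or animals, so p-values may measure technical spread. Intervals and limits cover counting error only, and PCR duplicates could narrow them.

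All peak ends fell within NCBIM37 chromosome lengths. Windows were 1 kb either side of protein-coding starts of GENCODE M1. In simulated data for satellite cells against +Dox (14480 genes), the fit called 78% of genes changed 4-fold and 100% of those changed 16-fold. For -Dox against +Dox (14549 genes) these were 75% and 100%, and for satellite cells against -Dox (14505 genes) 67% and 99%. The changed genes were drawn only from better expressed genes, and the simulated spread followed a smooth trend with level. These shares therefore do not cover genes with low counts or with 1 outlying replicate. The genes, lists and tests were chosen with earlier results of these data known. Named genes were the 4 members, close relatives, up to 3 called genes per list and direction by fold, the 3 most correlated genes and the nearest neighbours. Further list genes were named after their values were seen. Protein sequences are not analysed here, and 1 called gene of a list is not named or reported singly here.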

Additional observations from a re-analysis of the deposited data

How the results depend on the processing

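The satellite against +Dox count (6252 genes) stayed within 1.5 times under every alternative run. The -Dox against +Dox count, 1134, became 741 with the replicate block, 1950 with only the conditions compared and 2010 with DESeq2, and 488 to 1374 when 1 library was left out. It was 674 without +Dox replicate 1, 630 without +Dox replicate 2, 508 without -Dox replicate 1 and 488 without -Dox replicate 2. The share of its calls that were higher, 60.6%, was 51.2% with only the conditions compared, 51.8% with DESeq2, 69.4% without +Dox replicate 2, 72.6% without -Dox replicate 1 and 74.4% without -Dox replicate 2. The satellite against -Dox count, 5579, ranged from 3204 (without -Dox replicate 1) to 5821 with 1 library left out, and was 3382 without -Dox replicate 2. The cause was not tested. The difference in Neu2 CPM, -Dox minus +Dox, was 0.0130 and reversed to -0.00644 without -Dox replicate 1 (range -0.00644 to 0.0330), all under the counting limit. None of the 4 genes could be fitted with the 2 iPax7 conditions alone, since all fail the filter there. The replicate numbers do not pair the libraries (same-numbered r of -0.055 and 0.048 between +Dox and -Dox), so the block only shows how that count depends on the fit. With peaks of -log10 q of at least 10 only, promoter peaks remained at 0 of the 4 genes at 12 hours, 1 at 24 hours and 0 in iPax7 myotubes, against 3, 4 and 3 with all peaks. The other 27 combinations of file and peak setting stayed within 1.5 times. The list counts without satellite replicate 1 were chosen after seeing the data.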
